A study of Mus musculus with 12 samples.

Results

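The genes described here encode the folding machinery of the cell and the sensors that adjust it, measured in mouse cytotoxic T lymphocytes (CTL), the CD8+ T cells that kill infected cells with secreted granules. They were chosen by name: 36 genes of the unfolded protein response and the heat shock response were listed, every probe set annotated to them was taken, and a gene was read from the one of highest average signal across the 12 arrays. Of the 36 listed genes, 34 were measured, out of 18193 genes on the array with a probe set of their own. These 34 comprise 22 genes of the endoplasmic reticulum (ER), 8 cytosolic chaperones and co-chaperones, 3 mitochondrial chaperones (Hspa9, Hspd1 and Hspe1) and the stress-induced transcription factor Atf3. Hsf1 and Hsp90ab1 were listed but were not analysed here, because no probe set in the annotation used names them alone.

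Proteins destined for secretion or for the cell surface fold in the ER with the help of chaperones, lectins and disulfide isomerases, and a cell that makes many such proteins needs more of this machinery. When folding falls behind, the membrane sensors IRE1 (Ern1), ATF6 and PERK (Eif2ak3) signal to the nucleus, where XBP1 and ATF6 raise the transcription of chaperone and degradation genes. Activated T cells use this response as they enlarge the ER for secretion. Unfolded proteins in the cytosol act instead through heat shock factors, which drive the cytosolic Hsp70 and Hsp90 families and their co-chaperones.

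The question was whether loss of PDK1, the kinase that activates Akt and several related kinases, or inhibition of Akt alone altered these transcripts. All CTL were made from mouse splenocytes, activated for 48 hr with 0.5 μg/ml CD3 antibody (2C11) and 20 ng/ml IL-2, and then kept in IL-2 for 5 days. In one experiment, 3 Cre control cultures carried the tamoxifen-regulated Cre (TamoxCre, expressed from the broadly active ROSA26 locus and so not limited to T cells) with intact Pdpk1 and 3 Pdpk1-null cultures carried TamoxCre with both alleles of Pdpk1, the gene of PDK1, floxed. Both groups received 0.6 μM 4-hydroxytamoxifen (4OHT) for the last 72 hr, so any effect of Cre or 4OHT is shared by them. In a separate experiment, wild-type CTL of 3 mice were each divided, and 1 portion received 1 μM AktI-1/2 (AktI), an allosteric inhibitor of Akt, for the last 48 hr. Mice were matched for age and sex, and the age is not given in the sources used here. Each group had 3 arrays, one per mouse. The labels give replicate numbers and no mouse, and an AktI array and the wild-type array of the same number were taken to come from the same mouse. Pdpk1-null and Cre control arrays come from different mice.

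Arrays of one group correlated at 0.996 to 0.998. Array medians lay between 4.606 and 4.628 (log2 signal) in the Pdpk1 experiment and between 5.102 and 5.141 in the Akt experiment, so levels were read within an experiment and effects were compared between them. Neither of the 2 Pdpk1 probe sets checked the deletion: their log2 fold changes were 0.05 and -0.04 (adjusted p 0.822 and 0.853), and where they lie relative to the deleted part was not analysed here. The study itself checked the deletion by immunoblot for PDK1 in CTL made in the same way. All 6 CTL markers (Cd8a, Cd8b1, Cd3e, Cd3d, Gzmb and Prf1) were above background in every group. With AktI, Prf1 differed by a log2 fold change of -2.20, Gzmb by -0.34 and Cd8b1 by 0.50 (limma adjusted p 0.000164, 0.0192 and 0.0035). Cd8a, Cd3e and Cd3d differed by 0.07, -0.09 and 0.00. After Pdpk1 deletion Prf1 differed by -0.67 (limma adjusted p 0.14) and the others by -0.12 to 0.27. Background was the level under which 95% of 78 odorant and vomeronasal receptor probe sets lay, at 4.45 in the Pdpk1 experiment and 5.01 in the Akt experiment. The 34 unfolded protein and heat shock genes were all above it in both.

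Promoter sequence gives a further description of the group. It is not independent of the choice by name, because the elements searched are those of the unfolded protein and heat shock responses. Of the 34 genes, 28 had a promoter in the RefSeq table used (GRCm38.p6), among them 19 ER genes and 6 cytosolic ones, and the 250 bases before each gene start were searched on both strands. The ER stress element ERSE (CCAAT, then 9 bases of any kind, then CCACG), through which ATF6 and XBP1 act with NF-Y, was present on either strand in 37 of 32851 promoters (0.113%). It was present in 8 of the 19 ER genes with a promoter (Hspa5, Hsp90b1, Calr, Canx, Pdia6, Dnajc3, Syvn1 and Creld2) and in 0 of the 6 cytosolic ones. The related ERSE-II (ATTGG and CCACG with 1 base between them) was present in 0.0304% of all promoters and in 1 ER gene, Herpud1. The unfolded protein response element UPRE (TGACGTGG) was present in 0.563% of all promoters and in none of the 28 genes. A heat shock element of 3 repeats (GAA, TTC and GAA, with 2 bases of any kind between each) was present in 0.466% of all promoters and, within the group, in Hspd1 and Hspe1, whose divergent promoters share the same bases. Matches describe letters in this window and are not evidence of factor binding, and no match says only that these letters are not in the window.

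The sequences below, 170 bases up to the gene start, are shown for the 3 ER genes with the largest differences after Pdpk1 deletion (Creld2, Syvn1 and Hspa5), for Calr, whose element lies on the opposite strand and farther from the start, for the single ERSE-II, and for the heat shock element of Hspe1. Capitals mark the matched element, and a match on the opposite strand reads as its reverse complement.
Hspa5, chr2:34771920-34772089, plus strand: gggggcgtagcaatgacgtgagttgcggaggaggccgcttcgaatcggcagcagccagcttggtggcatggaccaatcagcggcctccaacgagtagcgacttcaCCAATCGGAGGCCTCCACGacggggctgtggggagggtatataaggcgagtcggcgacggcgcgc
Syvn1, chr19:6046406-6046575, plus strand: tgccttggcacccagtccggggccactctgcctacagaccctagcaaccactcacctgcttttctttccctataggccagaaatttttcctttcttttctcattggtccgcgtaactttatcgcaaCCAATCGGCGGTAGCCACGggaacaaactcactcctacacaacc
Creld2, chr15:88819476-88819645, plus strand, match on the opposite strand: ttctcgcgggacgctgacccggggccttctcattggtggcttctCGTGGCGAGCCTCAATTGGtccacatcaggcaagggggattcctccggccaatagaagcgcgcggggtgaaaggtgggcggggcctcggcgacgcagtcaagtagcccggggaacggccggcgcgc
Calr, chr8:84846932-84847101, minus strand, match on the opposite strand: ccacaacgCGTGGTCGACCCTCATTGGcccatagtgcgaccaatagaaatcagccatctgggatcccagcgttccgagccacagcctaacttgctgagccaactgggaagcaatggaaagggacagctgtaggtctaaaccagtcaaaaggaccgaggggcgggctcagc
Herpud1, chr8:94386259-94386428, plus strand: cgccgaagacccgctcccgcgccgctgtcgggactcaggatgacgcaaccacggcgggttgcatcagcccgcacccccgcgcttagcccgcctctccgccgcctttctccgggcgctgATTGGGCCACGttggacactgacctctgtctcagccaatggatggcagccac
Hspe1, chr1:55087978-55088147, plus strand, matches on both strands: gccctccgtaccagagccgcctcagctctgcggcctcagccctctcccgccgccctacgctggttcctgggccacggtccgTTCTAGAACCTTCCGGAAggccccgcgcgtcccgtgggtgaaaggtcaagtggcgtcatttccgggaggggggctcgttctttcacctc

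After Pdpk1 deletion, ER transcripts sat slightly below the Cre control, by less than 1.5-fold for every gene. The mean was lower in 22 of the 22 ER genes, with a median log2 fold change of -0.22 (range -0.38 to -0.02), where 52.9% of all genes measured were lower (53.7% of genes above background) and the median of all genes was -0.01. No gene of the 34 passed the test (limma, adjusted p under 0.05 and at least 1.5-fold), where 1.36% of all genes passed. SAM, the test of the study, called 0 of them with the same fold minimum, which none of the differences reached. Among the 22 ER genes, 12 had an unadjusted p under 0.05 with a lower mean (background 9.04%, or 12% of genes above background), and in 11 every Pdpk1-null array was below every Cre control array (background 13.7%, or 17.8% of genes above background). The 95% interval of the difference lay within 1.5-fold either way in 21 of the 22 genes (background 93.5%), the exception being Creld2. In whole cultures, fewer cells of a type and less RNA per cell cannot be told apart.

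Hspa5 encodes BiP, the Hsp70 chaperone of the ER lumen that also holds the stress sensors inactive. Its log2 signal was 12.77, 12.83 and 12.73 on the Cre control arrays and 12.31, 12.51 and 12.43 on the Pdpk1-null arrays. The groups did not overlap, and the log2 fold change was -0.36 (SE 0.0751, 1.28-fold lower, adjusted p 0.0584). It met neither the adjusted p threshold nor the 1.5-fold minimum. Of its other probe sets one gave -0.36 and one 0.03, and the mean of all 3 was -0.23 (adjusted p 0.126). With AktI the BiP transcript gave 12.82, 12.88 and 12.82 against 12.97, 13.03 and 13.01 in wild-type CTL, without overlap and lower in all 3 mice, a log2 fold change of -0.16 (SE 0.0621, adjusted p 0.215).

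Syvn1 encodes HRD1, the ubiquitin ligase that marks misfolded ER proteins for degradation. It measured 7.85, 7.95 and 8.01 in Cre control CTL and 7.56, 7.51 and 7.64 in Pdpk1-null CTL, so the groups were apart. Its log2 fold change of -0.37 (SE 0.0734, 1.29-fold lower) was the single one of the 34 with an adjusted p under 0.05 (0.048, background 0.742% of genes lower at that threshold), and it did not reach the 1.5-fold minimum. Its adjusted p rose to between 0.0856 and 0.167 when any one array was left out, and its other probe set gave -0.28 (adjusted p 0.218). With AktI the values were 7.84, 7.85 and 7.93 against 7.93, 7.98 and 7.93, which did not overlap before rounding but almost touched (log2 fold change -0.07, adjusted p 0.629).

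Creld2 encodes a disulfide isomerase-like protein induced by ER stress. It had the largest difference of the ER genes after Pdpk1 deletion. Its log2 signal was 9.97, 10.20 and 10.04 on Cre control arrays and 9.50, 9.92 and 9.65 on Pdpk1-null arrays. The second Pdpk1-null array lay close to the controls, and the log2 fold change of -0.38 carried a wide 95% interval of -0.64 to -0.12 (adjusted p 0.156). With AktI, Creld2 measured 10.13, 10.12 and 10.31 against 10.38, 10.37 and 10.45, again without overlap (log2 fold change -0.22, adjusted p 0.166).

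The second Pdpk1-null array was nearest to the controls across the ER genes, as the plot of deviations shows. Taken against the Cre control mean of each gene, the median deviation of the 22 ER genes was -0.29, -0.09 and -0.23 on the Pdpk1-null arrays and -0.07, 0.07 and -0.02 on the Cre control arrays. The lowest Cre control array and the highest Pdpk1-null array therefore differed by little. The median of all genes deviated by at most 0.02 on any of these arrays. Without the second Pdpk1-null array the ER median log2 fold change was -0.29, and Hspa5 and Creld2 had adjusted p-values under 0.05 (0.0487 and 0.0474), again at less than 1.5-fold.

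**Figure D1:**
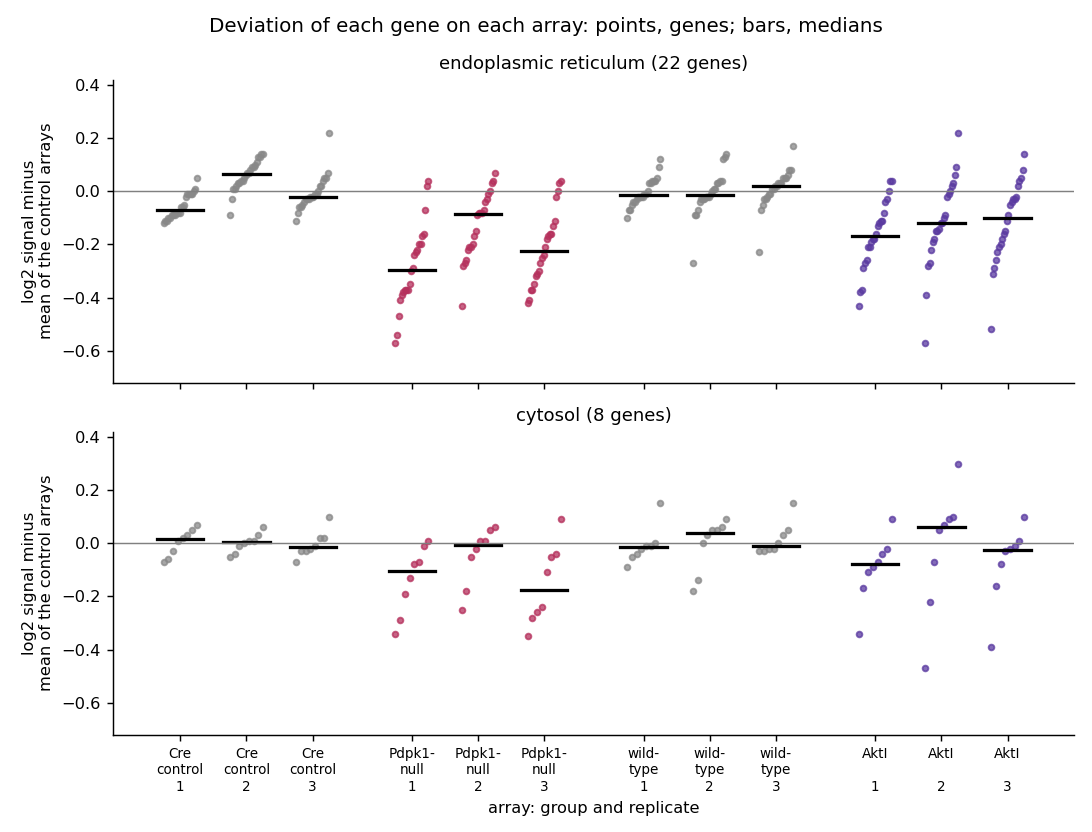
Deviation of each gene on each array, as log2 signal minus the mean of the control arrays of the same experiment (Cre control or wild-type); each point is a gene, each bar the median, with 22 ER genes above and 8 cytosolic genes below. The 3 Pdpk1-null arrays have ER medians of -0.29, -0.09 and -0.23 and the 3 AktI arrays -0.17, -0.12 and -0.10, while the cytosolic medians lie between -0.17 and 0.06.

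By role, the 9 ER chaperones and co-chaperones had a median log2 fold change of -0.23 after Pdpk1 deletion (range -0.38 to -0.08). After BiP and Creld2, the larger differences in this class were those of Dnajc3, which encodes the BiP co-chaperone p58IPK, Dnajb9, which encodes the co-chaperone ERdj4 (-0.27), and Dnajb11, which encodes ERdj3 (-0.23). Dnajc3 measured 10.50, 10.56 and 10.41 in Cre control CTL and 10.08, 10.28 and 10.12 in Pdpk1-null CTL. These groups were apart, with a log2 fold change of -0.33 (SE 0.0806, adjusted p 0.0918), and the other 4 probe sets of the gene gave -0.19 to -0.32. The smallest difference in the class was that of Hsp90b1, the ER Hsp90 known as GRP94 (-0.08, SE 0.0899). Hyou1 (-0.23, with -0.05 and -0.15 by its other probe sets), Sdf2l1 (-0.19) and Manf (-0.16), an ER Hsp70-like chaperone, a component of BiP complexes and a secreted stress-induced factor, lay between.

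The 5 lectin chaperones and disulfide isomerases had a median of -0.17 (range -0.32 to -0.05). Calr encodes calreticulin, the soluble lectin chaperone of glycoproteins. It measured 11.76, 11.95 and 11.93 in Cre control CTL and 11.34, 11.66 and 11.70 in Pdpk1-null CTL, apart by a narrow margin (log2 fold change -0.32, SE 0.108, adjusted p 0.211, or -0.20 without the first Pdpk1-null array). Canx, which encodes its membrane-bound relative calnexin, differed by -0.05 (SE 0.078). The disulfide isomerases Pdia6, Pdia4 and Pdia3 differed by -0.24, -0.17 and -0.13, with adjusted p-values of 0.273, 0.535 and 0.429, and their second probe sets gave -0.06, 0.09 and -0.29. The second Pdia4 probe set was below background.

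The 4 genes of ER-associated degradation, the route by which misfolded proteins leave the ER for the proteasome, had a median of -0.28. Alongside Syvn1, these were Herpud1, a component of the same ligase complex (-0.32, SE 0.0671, adjusted p 0.0598, groups apart), and Sel1l, its adaptor (-0.24, adjusted p 0.159), while Edem1 differed by -0.04. Of the 3 sensors and transcription factors, Ern1 differed by -0.22 (adjusted p 0.17, with -0.17 to 0.01 by its other 4 probe sets), Atf6 by -0.14 (adjusted p 0.627) and Xbp1 by -0.02 (adjusted p 0.914). Of those 4 Ern1 probe sets, only the one at 0.01 was above background. These arrays measured the Xbp1 transcript as a whole and not its splicing. Sec61b, a subunit of the translocon through which new proteins enter the ER, differed by -0.07.

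Among the 8 cytosolic genes, 7 had a lower mean after Pdpk1 deletion, with a median log2 fold change of -0.11 (range -0.29 to 0.01), and none had an adjusted p under 0.05. In 3 of them the Pdpk1-null arrays were all lower (background 13.7%, or 17.8% of genes above background), and 1 of the 8 had an unadjusted p under 0.05, against 9.04% of all genes and 12% of those above background. That gene was Hspa4, which encodes an Hsp110-family exchange factor of Hsp70. It measured 10.74, 10.86 and 10.82 in Cre control CTL and 10.46, 10.55 and 10.52 in Pdpk1-null CTL, clearly apart (log2 fold change -0.29, SE 0.0683, adjusted p 0.0802).

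Hsph1, which encodes the related exchange factor Hsp105, measured 9.65, 9.64 and 9.63 on Cre control arrays and 9.35, 9.69 and 9.29 on Pdpk1-null arrays. The second Pdpk1-null array was above every control and the other two were below, giving a log2 fold change of -0.20 (SE 0.105, adjusted p 0.44), which was -0.32 without the second array and -0.12 without the third. Hsp90aa1, the inducible cytosolic Hsp90, measured 12.07, 12.11 and 12.12 against 11.91, 12.05 and 11.84 in Pdpk1-null CTL. The groups did not overlap but nearly met (log2 fold change -0.17, SE 0.0755, adjusted p 0.348). Hspa8, the constitutive Hsp70, and its co-chaperones Dnaja1 and Dnajb1 differed by -0.02, -0.05 and 0.01, each with an SE of at most 0.069, and the small heat shock gene Hspb1 by -0.01.

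**Figure D2:**
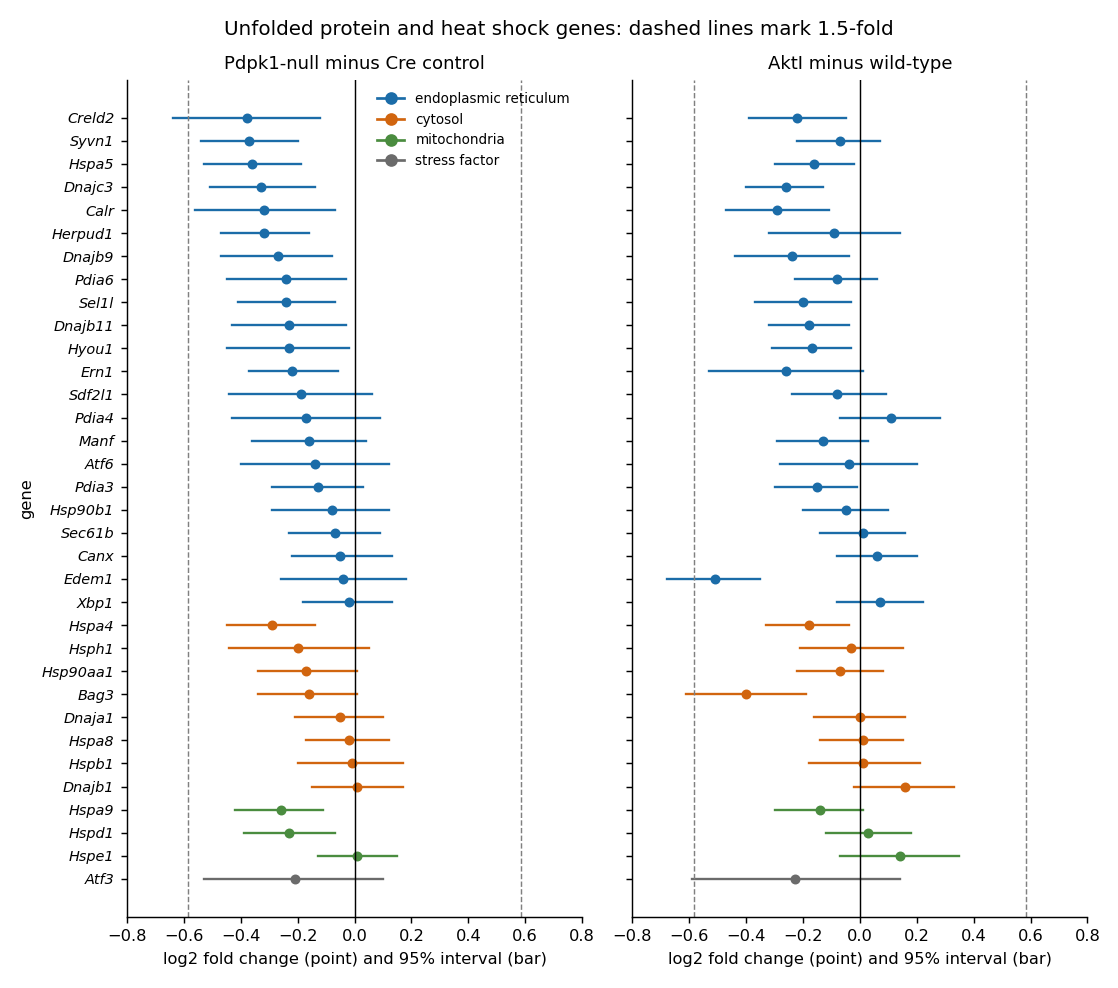
Log2 fold change of each of the 34 genes (point) with its 95% interval (bar) from the limma fit of each comparison, 3 arrays against 3, ordered by compartment and by the Pdpk1 difference; dashed lines mark 1.5-fold. All 22 ER points lie below 0 on the left and 18 of 22 on the right, and no point reaches a dashed line.

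With AktI, ER transcripts were again slightly below the untreated cultures of the same mice, except that 1 gene, Edem1, differed by more than the others. The mean was lower in 18 of the 22 ER genes, with a median log2 fold change of -0.14 (range -0.51 to 0.11), where 55% of all genes were lower (53.2% of those above background) and their median was -0.02. No gene of the 34 passed with limma (background 2.53%) or with SAM, and none differed by the 1.5-fold that both required. Among the 22, 10 had an unadjusted p under 0.05, all lower (background 10.7%, or 13.6% of genes above background), and the 95% interval lay within 1.5-fold in 21 (background 93.4%), the exception being Edem1. In 13 of the 22 every AktI array was below every wild-type array (background 14.8%, or 19% of genes above background), and 14 were lower in all 3 mice (background 24%, or 28.4% of genes above background). Averaging a gene's probe sets reduced the ER median to -0.09, with 16 of 22 lower.

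Edem1 encodes a mannosidase-like lectin that extracts misfolded glycoproteins for degradation. It measured 11.25, 11.12 and 11.26 in wild-type CTL and 10.78, 10.64 and 10.69 with AktI. The groups were far apart and each of the 3 mice was lower, by -0.47, -0.49 and -0.58. The log2 fold change was -0.51 (SE 0.072, 95% interval -0.68 to -0.35, 1.43-fold lower) with an adjusted p of 0.00532, under the 1.5-fold minimum but within an interval that includes it. Both of its probe sets gave -0.51 (adjusted p 0.0103 for the second), and its adjusted p stayed under 0.05 in each of the 13 alternative fits, between 8.99e-05 and 0.0286.

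After Pdpk1 deletion Edem1 measured 10.29, 10.58 and 10.54 against 10.40, 10.60 and 10.53, overlapping throughout (log2 fold change -0.04, SE 0.0963). Its second probe set gave -0.18 (SE 0.0742, adjusted p 0.286), and the mean of both was -0.11. The difference between its effects was 0.47 (95% interval 0.21 to 0.74) with an adjusted p of 0.149, the lowest of the 34 genes. No gene of the 34 passed limma's test of the difference (background 0.522%). At an unadjusted p under 0.05 there were 3, with Syvn1 and Hspd1 lower after Pdpk1 deletion relative to AktI (background 5.42%) and Edem1 higher (background 5.66%).

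Without the fold minimum, 3 of the 34 genes had an adjusted p under 0.05 with AktI, all lower: Edem1, Bag3 and Dnajc3 (background 2.94%). Bag3, a co-chaperone that links Hsp70 to autophagy, measured 6.80, 6.47 and 6.68 in wild-type CTL and 6.31, 6.18 and 6.26 with AktI. It was apart and lower in each mouse (log2 fold change -0.40, SE 0.092, adjusted p 0.0433), and its adjusted p lay between 0.0199 and 0.15 when an array was left out. In Pdpk1-null CTL it was 5.81, 5.71 and 5.65 against 5.82, 5.85 and 5.99, which did not overlap but almost touched (log2 fold change -0.16, adjusted p 0.373).

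Dnajc3 measured 10.80, 10.86 and 10.81 in wild-type CTL and 10.56, 10.55 and 10.56 with AktI, a tight and separate pair of groups (log2 fold change -0.26, SE 0.0607, adjusted p 0.0438). The other 4 probe sets of the gene differed by 0.03 to 0.09, and their mean with the first was 0.00. With the mouse as a replicate block its adjusted p was 0.0887, while Edem1 (0.0116) and Bag3 (0.0325) stayed under 0.05.

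Calr measured 12.39, 12.30 and 12.47 in wild-type CTL and 12.01, 12.20 and 12.08 with AktI. The groups did not overlap, and the log2 fold change was -0.29 (SE 0.0773, adjusted p 0.0764). Ern1 differed by -0.26 (adjusted p 0.303) by its brightest probe set and by -0.01 to 0.13 by the other 4, and the mean of all 5 was -0.02. Of those 4, only the probe set at -0.01 was above background. Among the other ER genes, Dnajb9 differed by -0.24 (adjusted p 0.192) and Sel1l by -0.20 (adjusted p 0.209). The 4 ER genes with a higher mean were Pdia4 (0.11), Xbp1 (0.07), Canx (0.06) and Sec61b (0.01), with adjusted p-values of 0.542 to 0.955. A second Sel1l probe set gave -0.33 with an adjusted p of 0.0329.

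With AktI, 4 of the 8 cytosolic genes were lower by their brightest probe sets, with a median log2 fold change of -0.01 (range -0.40 to 0.16). The count was 3 without the first AktI array, 6 without the third wild-type array or with quantile normalization, and 7 without the second AktI array. Dnajb1, which encodes the Hsp40 partner of Hsp70, measured 10.23, 10.29 and 10.21 in wild-type CTL and 10.33, 10.54 and 10.34 with AktI. The AktI arrays were all above, in each mouse (log2 fold change 0.16, SE 0.0766, adjusted p 0.338, or 0.09 without the second AktI array), whereas in the Pdpk1 experiment the values of 9.12, 9.17 and 9.07 in null CTL overlapped 9.18, 9.06 and 9.08 in controls.

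Hspa4 measured 11.54, 11.59 and 11.64 in wild-type CTL and 11.42, 11.37 and 11.43 with AktI, lower in each mouse by its brightest probe set (log2 fold change -0.18, adjusted p 0.168). Its probe sets disagreed: another gave 0.41 with an adjusted p of 0.027, and the mean of all 4 gave 0.06, so its direction with AktI is not settled. Counts of lower genes with AktI include Hspa4 by its brightest probe set. Hsph1 measured 10.33, 10.51 and 10.42 against 10.33, 10.51 and 10.34 with AktI, and Hsp90aa1 13.02, 13.12 and 13.04 against 12.95, 12.99 and 13.03. Both overlapped, with log2 fold changes of -0.03 and -0.07. Hspa8, Dnaja1 and Hspb1 lay within 0.01 of 0.

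**Figure D3:**
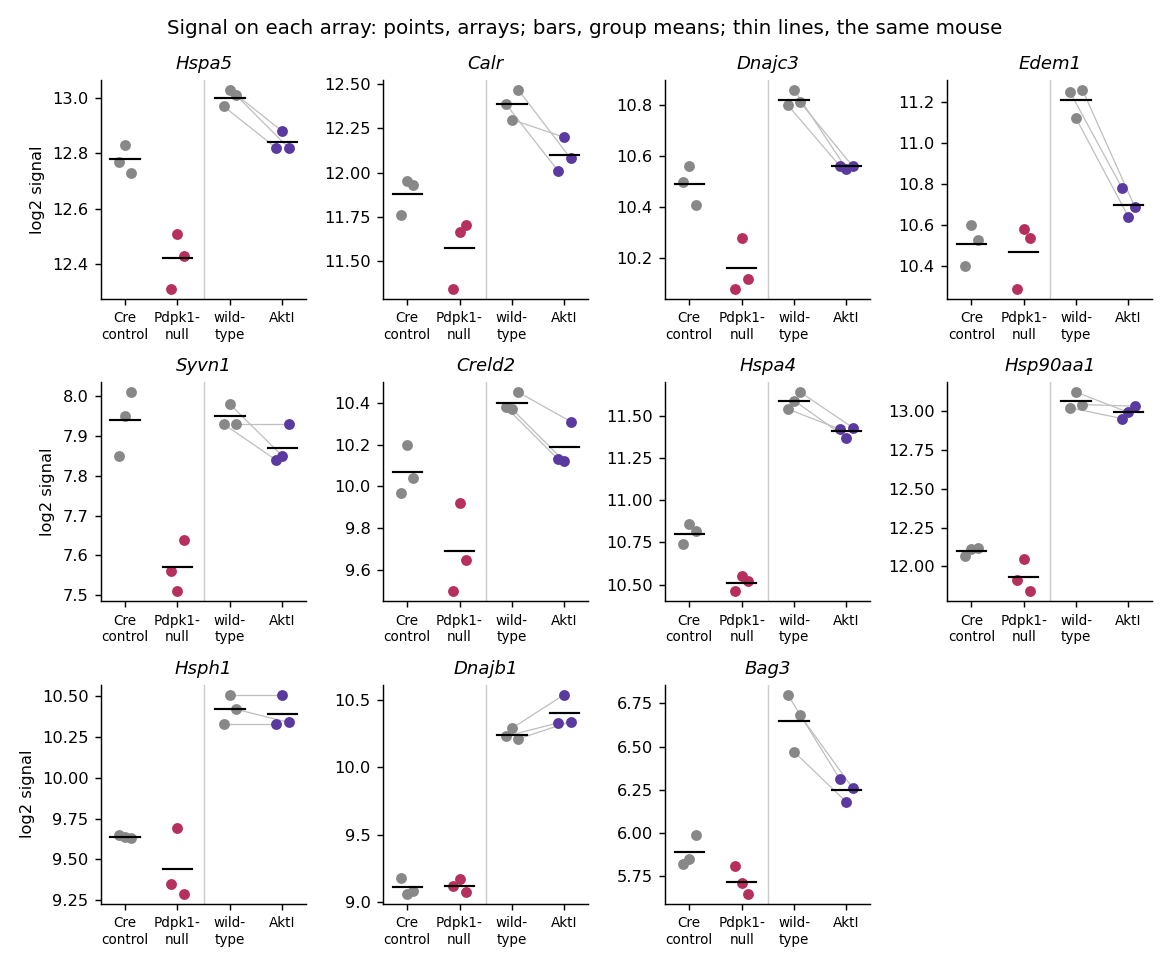
Log2 signal of the 11 genes described on every array, each point an array, each bar the group mean, and thin lines joining wild-type and AktI portions of the same mouse; the vertical axes differ and do not start at 0. Edem1 is separated with AktI (log2 fold change -0.51) and overlaps in the Pdpk1 experiment, and Syvn1 is separated by more after Pdpk1 deletion (-0.37) than with AktI (-0.07).

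None of the 3 mitochondrial chaperones had an adjusted p under 0.05 in either comparison, and differences between these genes were not tested. Hspa9 (mortalin, the mitochondrial Hsp70) differed by -0.26 after Pdpk1 deletion (SE 0.0661, adjusted p 0.0966) and by -0.14 with AktI, and Hspd1 (Hsp60) by -0.23 (adjusted p 0.169) and 0.03. Hspe1 (Hsp10), which shares the divergent promoter of Hspd1 shown above, measured 11.70, 11.70 and 11.73 in Cre control CTL and 11.71, 11.71 and 11.74 in Pdpk1-null CTL, a log2 fold change of 0.01 (SE 0.0624), and differed by 0.14 with AktI. Atf3 varied more between arrays than any other member and differed by -0.21 (SE 0.14) and -0.23 (SE 0.16).

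Set against the distribution of genes above background, the ER genes were displaced to lower values as a group in the Pdpk1 comparison and less so with AktI. The ER median of -0.22 after Pdpk1 deletion fell between the 9th and the 10th percentile of log2 fold changes of genes above background (-0.224 and -0.212), and the AktI median of -0.14 lay near the 18th (-0.143). These are descriptions of a named list, and its displacement was not tested.

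**Figure D4:**
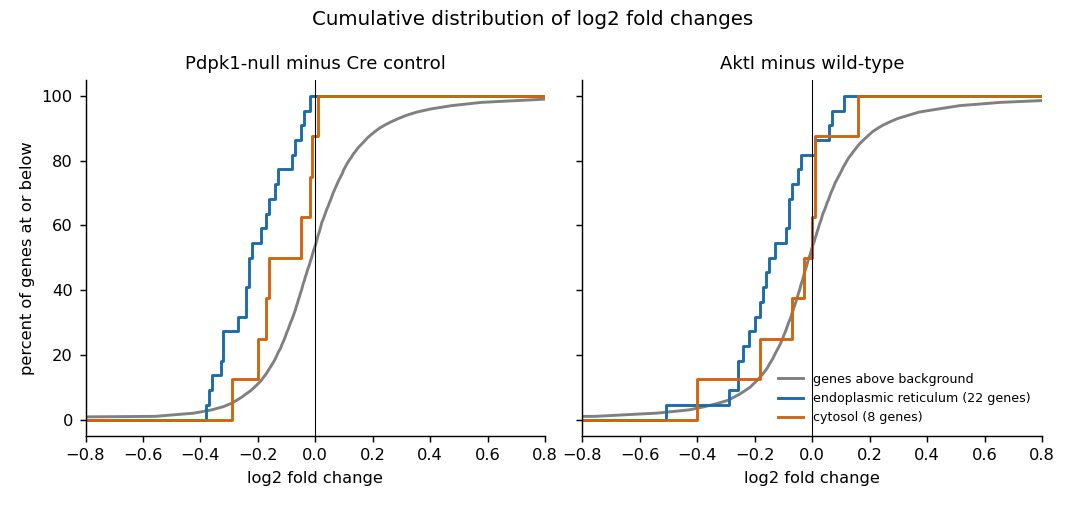
Cumulative percent of genes at or below each log2 fold change for 22 ER genes, 8 cytosolic genes and the genes above background (11958 in the Pdpk1 experiment and 11833 in the Akt experiment). Except at its lower end, the ER line lies left of the background line in both panels, with medians of -0.22 and -0.14, and the cytosolic line crosses the background line with AktI.

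Across the 34 genes, 24 were lower in both comparisons (70.6%, against 34.5% of all genes and 36.1% of those above background in both). These included 18 of the 22 ER genes and 4 of the 8 cytosolic ones, among them Hspa4, whose probe sets disagreed with AktI. The comparisons share no arrays. The log2 fold changes of the 34 genes correlated with a Pearson r of 0.469 and a Spearman rho of 0.588, and those of the 22 ER genes with 0.3 and 0.45. For all 18193 genes the values were 0.532 and 0.359, and for the 11422 above background in both experiments 0.613 and 0.475. Genes are not independent replicates. ER genes with ERSE or ERSE-II (9 genes) had a median of -0.32 after Pdpk1 deletion and the 10 without either had -0.18, whereas with AktI the order was the other way (-0.09 and -0.16). These medians were not tested, and the ranges overlapped (-0.38 to -0.05 and -0.27 to -0.02 after Pdpk1 deletion).

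**Figure D5:**
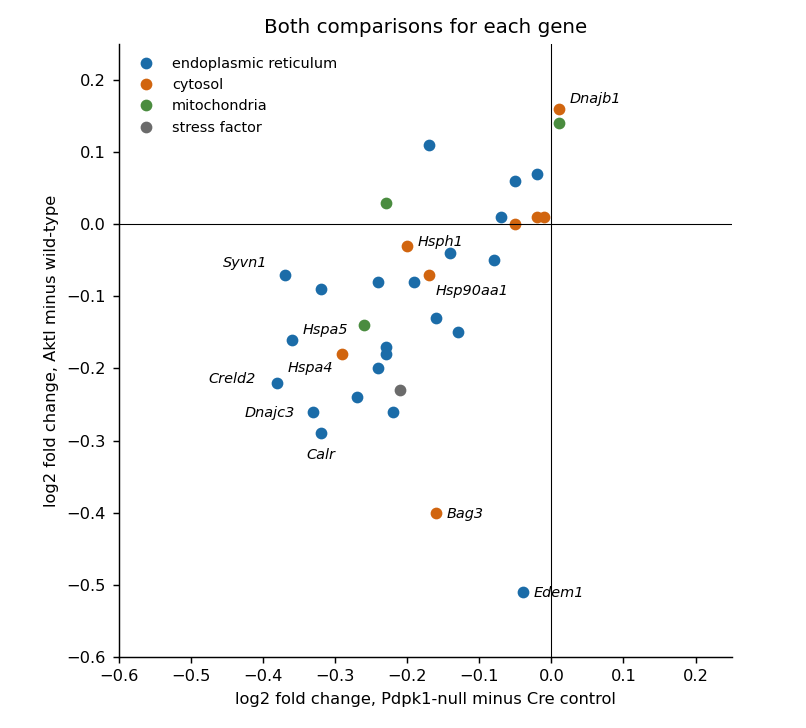
Log2 fold change with AktI (vertical) against that after Pdpk1 deletion (horizontal) for each of the 34 genes, coloured by compartment, with the 11 genes described named. Of the 34 points, 24 lie in the lower left quadrant, Edem1 and Bag3 stand lowest on the vertical axis (-0.51 and -0.40), and Syvn1, Creld2 and Hspa5 lie farthest left (-0.37, -0.38 and -0.36).

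Of 78 other genes of the same pathways, 1 passed in either comparison, where 1.36% of all genes passed after Pdpk1 deletion and 2.53% with AktI. It was Ero1a (Ero1l in the array annotation), the oxidase that recharges disulfide isomerases. It measured 10.99, 10.87 and 10.98 in wild-type CTL and 10.11, 10.07 and 10.22 with AktI. The groups were widely apart, and Ero1a fell by 0.82 on the log2 scale (SE 0.0727, 1.76-fold lower, adjusted p 0.000572). In the Pdpk1 experiment it was 11.01, 11.19 and 11.07 against 10.39, 10.79 and 10.71, apart as well but not past the test (log2 fold change -0.46, SE 0.112, adjusted p 0.0882).

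Among the 38 other ER genes, 29 had a lower mean after Pdpk1 deletion (median -0.10, against 52.9% of all genes lower) and 27 with AktI (median -0.09, against 55%). After Ero1a, the largest Pdpk1 difference was that of Wfs1, which encodes an ER membrane protein (-0.41, adjusted p 0.11). With AktI, 5 of the 38 had an adjusted p under 0.05, all lower (background 2.94%): Ero1a, its relative Ero1b (-0.45), the ER Hsp70 gene Hspa13 (-0.35), the ATF6 relative Atf6b (-0.28, adjusted p 0.0381, or 0.0786 with the mouse as a replicate block) and Eif2ak3, the gene of the sensor PERK (-0.58, SE 0.113, adjusted p 0.0237, just under 1.5-fold). The largest higher value was that of Trib3, a stress-induced pseudokinase, at 0.71 with AktI (1.64-fold, adjusted p 0.0525), higher in all 3 mice at 9.28, 9.55 and 9.66 against 8.62, 9.19 and 8.52. With the mouse as a replicate block its adjusted p was 0.0472, so that it passed and 2 of the 78 genes did.

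Of the 32 other heat shock genes, 22 were lower after Pdpk1 deletion (median -0.06, against 52.9% of all genes) and 20 with AktI (median -0.03, against 55%). None passed with limma, and 6 and 3 had an unadjusted p under 0.05, all lower (background 9.04% and 10.7%). The largest differences were those of Hspa1b, an inducible Hsp70, after Pdpk1 deletion (-0.36, adjusted p 0.0497), whose signal was below background on these arrays, and of Dnajb4, an Hsp40, at -0.34 (adjusted p 0.13) after Pdpk1 deletion and -0.52 (adjusted p 0.0044) with AktI. The next with AktI was Hspa14 (-0.16, adjusted p 0.208). All 8 other mitochondrial chaperones and proteases were lower after Pdpk1 deletion (median -0.15, against 52.9% of all genes) and 5 with AktI (median -0.05, against 55%). Lonp1, the matrix protease, had the largest difference in both (-0.46, adjusted p 0.0408, and -0.37, adjusted p 0.0158), both under 1.5-fold, followed by Clpx (-0.23) after Pdpk1 deletion and Trap1 (0.16) with AktI.

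Markers of B or plasma cells differed in both directions with AktI. Of 6 B or plasma cell markers measured, 4 were above background there, and Jchain, a gene of antibody-secreting cells, measured 6.88, 8.90 and 8.39 in wild-type CTL and 5.10, 7.12 and 6.85 with AktI (log2 fold change -1.70, lower in all 3 mice, adjusted p 0.178, or 0.000404 with the mouse as a replicate block). Of the other 3 above background, Cd79b was higher in all 3 mice (0.34, adjusted p 0.0721), Cd79a was 0.10 and Sdc1 -0.12. The summed log2 signal of the 6 markers ranged from 31.56 to 33.12 in wild-type CTL and from 30.08 to 32.08 with AktI, and the defining B cell and plasma cell markers Ms4a1 and Tnfrsf17 were below background. In the Pdpk1 experiment 2 of the 6 were above background, Jchain was below it, and the sums were 23.72 to 24.71 in Cre control CTL and 24.64 to 25.28 in Pdpk1-null CTL. Of 6 myeloid markers, 2 were above background in wild-type and AktI CTL, 3 in Cre control CTL and 4 in Pdpk1-null CTL, and Itgam and Adgre1 were below it throughout. Their summed signal ranged from 31.48 to 31.73 in wild-type CTL and from 29.38 to 30.09 with AktI, with Cd68 at -1.30 (adjusted p 0.00563), while in the Pdpk1 experiment it ranged from 29.19 to 29.59 in Cre control CTL and from 29.73 to 30.72 in Pdpk1-null CTL. The part of other cells in the ER differences was not tested. The single NK and erythroid markers measured (Ncr1 and Hba-a1) were below background in every group, and Cd4 was above it at 6.50 to 6.98 on every array.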

How the data were processed

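RNA of CTL was hybridised to 12 Affymetrix GeneChip mouse genome arrays, with 3 arrays in each of 4 groups. The deposited log2 signals were made by the authors with robust multichip averaging in Affymetrix Expression Console 1.1, per the labels and the study's methods, and were used as deposited. Because array medians were alike within an experiment and unlike across the pair of them, the signals were taken to have been normalized apart. Of 45101 probe sets, 64 controls were left out and 45037 were tested, of which 34945 name 1 gene, 932 several and 9160 none in the platform annotation, with symbols updated through RefSeq.

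Each comparison was fitted on its own 6 arrays with lmFit and eBayes (limma 3.58.1, R 4.3.3), with Benjamini-Hochberg adjustment across every tested probe set. Passing required a change of 1.5-fold or more together with an adjusted p under 0.05. To compare the effects, an interaction was fitted over all 12 arrays. Intervals are 95% intervals of these fits. None of these fits used the pairing of AktI and wild-type arrays by mouse, which entered only in the replicate block. The number of arrays limits the precision, and an exact permutation test of 3 against 3 arrays cannot give a p below 0.1. The fits were tested on simulated data. Wild-type and AktI arrays of one number were taken to share a mouse, because each culture was divided and the labels give the same replicate number. Their deviations from the group means correlated at 0.0343 to 0.17, against -0.102 to 0.0383 for arrays of different numbers.

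The genes, their division, the other pathway genes and the markers were chosen with earlier results of these data known, so no list was tested. Values on every array are given for genes that passed and, where fewer than 3 of the ER or the cytosolic genes passed in a comparison, for the 3 with the largest difference there. From each list of other pathway genes, up to 4 passing genes are named by size of change, or 2 where none passed, and further ones were named after their values were seen, as were the motifs searched and the promoters printed. Alternatives were the methods' SAM test, a trended robust variance, quantile normalization, centring, a filter on dim probe sets, other fold minimums, other uses of a gene's probe sets, 1 model over all arrays, the replicate block, and leaving out each array.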

Additional observations from a re-analysis of the deposited data

How the results depend on the processing

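No gene of the 34 passed in either comparison, or in the test of the difference, under any alternative except the removal of the fold minimum, when 1 gene (Syvn1) was called after Pdpk1 deletion and 3 (Dnajc3, Edem1 and Bag3) with AktI. SAM, the test of the study's methods, also called 0 and used the same fold minimum. With each array left out in turn the count was 0 to 0. None of the 34 genes reached 1.5-fold (log2 0.585) in either comparison under any setting. The largest difference was -0.56 (Edem1 with AktI, wild-type replicate 2 left out). These counts of 0 were therefore set by the fold minimum and do not show that the tests agree. The median of the ER genes after Pdpk1 deletion ranged from -0.29 to -0.18 over the arrays left out and with AktI from -0.16 to -0.12, and the only setting that moved it beyond the spread between arrays was averaging a gene's probe sets, with AktI (-0.09). The cytosolic median ranged from -0.12 to -0.09 and from -0.06 to 0.01. How many genes had an adjusted p under 0.05 without a fold minimum varied with the setting. It was 7 after Pdpk1 deletion and 10 with AktI with a trended robust variance (all lower), 5 and 4 with dim probe sets left out, 6 and 3 in 1 model over all arrays, 2 and 5 with probe sets averaged, 0 and 2 after centring, and 0 and 2 with the replicate block. With 1 array left out it was 0 to 2 after Pdpk1 deletion, never including Syvn1, and 1 or 2 with AktI, Edem1 each time and Bag3 only without wild-type replicate 2. The share of all genes at that threshold was not counted in these settings, so these counts have no background beside them. With a trended robust variance Edem1 alone had an adjusted p under 0.05 for the difference (0.0333), still under 1.5-fold. Over the 34 genes, the direction turned under at least 1 alternative in 6 after Pdpk1 deletion and in 10 with AktI. Among the 11 genes given by array it turned in 4. Hspa4 with AktI was 0.06 with the mean of its probe sets. Hsph1 with AktI was 0.00 without AktI replicate 1 and 0.01 without wild-type replicate 2. Edem1 after Pdpk1 deletion was 0.00 without Cre control replicate 2 and 0.05 without Pdpk1-null replicate 1. Dnajb1 after Pdpk1 deletion was 0.00 with the mean of its probe sets and without Cre control replicate 3, and -0.01 without Pdpk1-null replicate 2 and likewise without Cre control replicate 2. The causes were not tested. Pdpk1-null and Cre control arrays share replicate numbers without a shared mouse (correlation of deviations -0.011 to 0.0496 for the same number), and with the number as a replicate block Syvn1 had an adjusted p of 0.0786.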
